A study of Mus musculus with 16 samples.

Results

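The coagulation and fibrinolysis genes of the liver were taken as 34 named genes, which were looked up by gene symbol, and all 34 were found among the 22612 genes of the table. They comprised 7 genes of thrombin generation, 5 of the contact pathway, 4 of fibrin formation, 9 inhibitors of clotting, 4 of the plasmin system, 1 platelet tether and 4 of the vitamin K cycle and export from the endoplasmic reticulum. Liver RNA was sequenced from male C57BL/6 mice that were bought at 7 weeks of age and, after acclimation, kept on 1 of 4 feeding plans for 16 weeks. Ketogenic-alternating mice switched every 2 weeks between the high-fat diet and a ketogenic diet with 90.5% of energy as fat. Chow-alternating mice switched every 2 weeks between the high-fat diet and chow. High-fat mice ate the diet with 58% of energy as fat throughout, and chow mice ate chow with 11% of energy as fat throughout. Each group had 6 mice and 4 sequenced libraries, and livers were taken after a fast overnight. The labels give neither the last diet of the alternating mice, nor the hour of collection, nor whether the 4 libraries of a group stand for 4 mice, so that p-values reflect spread among these samples, which may in part be technical.

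Blood clots when a chain of proteases, most of them made and secreted by hepatocytes, ends in thrombin, which turns fibrinogen into fibrin. Tissue factor starts the chain at a wound, whereas the contact pathway starts it on charged surfaces through factor XII, prekallikrein, kininogen and factor XI. Antithrombin, protein C, protein S, protein Z and tissue factor pathway inhibitor hold the chain back, plasmin dissolves the fibrin, and several of the factors need vitamin K to be carboxylated before they leave the cell.

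Levels are given in TPM, a transcript count corrected for length and scaled to the same total in every library, so that levels can be set side by side between genes. How deeply the libraries were sequenced is unknown, because TPM does not hold it. Differences were tested with limma on log2(TPM + 1), a scale that understates the change of genes near 1 TPM, and a gene was called at a Benjamini-Hochberg adjusted p below 0.05 over all genes tested. The members together held between 1.37% and 2.11% of the TPM of a library. The lowest shares were those of chow replicate 3 (1.37%) and high-fat replicate 1 (1.39%), which, with chow replicate 2 and high-fat replicate 2, were the 4 libraries whose 20 highest genes took over 33% of the TPM. Chow replicate 3 had the highest such share, 38.8%. Of 9 hepatocyte markers found in the table none averaged under 1 TPM, and their summed level lay between 76737 and 113460 TPM over the 16 libraries. The markers did not all move the same way. Between ketogenic-alternating and chow livers 1 of the 9, Apoa1, was called higher, against 3.67% of all genes tested. In that comparison 3 of the 9, Pck1, Tat and Ttr, were called lower, against 1.33%. In bulk liver, fewer cells of a type and less RNA per cell cannot be told apart.

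F11 (ENSMUSG00000031645) was the 1 member called in the comparisons with chow, and its level was higher in every library of the ketogenic-alternating, chow-alternating and high-fat groups than in any chow library. F11 encodes factor XI, a liver zymogen that thrombin or activated factor XII cleaves and that in turn activates factor IX. The gene lies on the minus strand at chr8:45241174-45262031 of mm10, and no other annotated gene overlaps it. F11 had 40.7, 41.5, 57.8 and 35.1 TPM in ketogenic-alternating livers, 46.1, 32.0, 34.9 and 42.5 TPM in chow-alternating livers, 43.9, 42.7, 64.5 and 73.4 TPM in high-fat livers, and 18.6, 11.1, 10.8 and 16.4 TPM in chow livers. The lowest of the 12 libraries from mice fed fat, 32.0 TPM, stood above the highest chow library. The means were 43.8 ± 9.78 TPM in ketogenic-alternating, 38.9 ± 6.51 TPM in chow-alternating, 56.1 ± 15.3 TPM in high-fat and 14.2 ± 3.87 TPM in chow livers (SD, n = 4 each).

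The log2 difference of F11 from chow was 1.57 in ketogenic-alternating livers (SE 0.209, 95% interval 1.11 to 2.03, limma adjusted p = 0.00181). It was 1.41 in chow-alternating livers (SE 0.195, interval 0.985 to 1.84, adjusted p = 0.00841) and 1.91 in high-fat livers (SE 0.240, interval 1.38 to 2.43, adjusted p = 0.00557). These 3 comparisons share the 4 chow libraries. F11 ranked 57 of 11091 genes, 17 of 10862 and 11 of 10960 by p in them, and 21 of 11450 in a moderated F test over the 4 groups (adjusted p = 2.09e-04). Among the fat-fed groups the libraries of F11 overlapped. Its log2 difference was -0.34 between ketogenic-alternating and high-fat livers (interval -0.80 to 0.13) and -0.49 between chow-alternating and high-fat livers (interval -0.93 to -0.06, limma adjusted p = 0.9995). It was 0.16 between ketogenic-alternating and chow-alternating livers (interval -0.20 to 0.52), which turned to -0.05 when libraries were scaled by median of ratios. With genes of any level kept, the call between chow-alternating and chow livers was lost (adjusted p = 0.0607), while the other calls of F11 against chow passed in all settings tried. Leaving out the 4 libraries whose 20 highest genes took over 33% of the TPM, F11 passed against chow in ketogenic-alternating (adjusted p = 0.0181), chow-alternating (adjusted p = 0.0298) and high-fat livers (adjusted p = 0.0162). These fits kept only replicates 1 and 4 of the chow group and replicates 3 and 4 of the high-fat group, so they rest on few libraries.

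**Figure D1:**
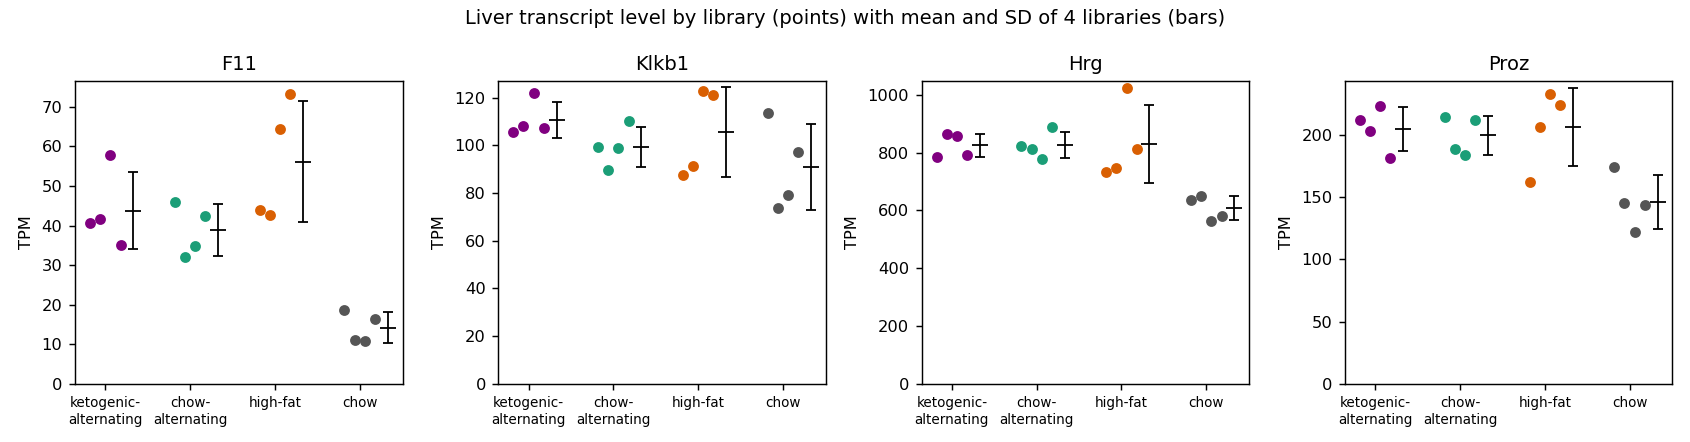
Level in TPM of F11, its neighbour Klkb1, Hrg and Proz in each of the 16 liver libraries (points) with the mean and SD of 4 libraries per group (bars). The 12 fat-fed libraries of F11 lie between 32.0 and 73.4 TPM, above the chow libraries, whereas those of Klkb1 overlap with chow.

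Klkb1, the gene of prekallikrein and a close relative of F11, lies 4.657 kb from it on the same strand. Klkb1 had 105, 108, 122 and 107 TPM in ketogenic-alternating livers, 99.1, 89.6, 98.8 and 110 TPM in chow-alternating livers, 87.3, 91.1, 123 and 121 TPM in high-fat livers, and 113, 73.9, 79.0 and 97.2 TPM in chow livers. Its groups overlapped, and its log2 differences from chow were 0.30 (interval -0.03 to 0.63) in ketogenic-alternating, 0.15 (-0.18 to 0.47) in chow-alternating and 0.22 (-0.20 to 0.64) in high-fat livers. The ratio of F11 to Klkb1 within a library was 0.393 ± 0.061 in ketogenic-alternating, 0.390 ± 0.052 in chow-alternating and 0.526 ± 0.059 in high-fat livers, and 0.155 ± 0.014 in chow livers (SD, n = 4 each). The lowest fat-fed ratio was 0.327 and the highest chow ratio 0.168. Of the Klkb1 transcript 43.2% is shared with Gm45753, a protein-coding gene that overlaps it on the same strand and averaged 0.695 TPM. The level of Klkb1 is therefore less certain than that of F11.

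The promoter windows of this pair are printed because F11 was called and its neighbour was not. They are RefSeq windows on GRCm38.p6, from 250 bases before to 50 bases after the annotated start, and 27 of the 34 members had one. Capitals mark matches, on either strand, to TATAAA (the TATA box), CTGGGAA (an IL-6 response element), GTTAAT (an HNF1 site in part), CAAAGTCCA (an HNF4 site) or TTGCNNAA (a C/EBP site), and no marked matches overlap each other. F11 is at chr8:45261982-45262281 and Klkb1 at chr8:45294786-45295085, both on the minus strand.
F11: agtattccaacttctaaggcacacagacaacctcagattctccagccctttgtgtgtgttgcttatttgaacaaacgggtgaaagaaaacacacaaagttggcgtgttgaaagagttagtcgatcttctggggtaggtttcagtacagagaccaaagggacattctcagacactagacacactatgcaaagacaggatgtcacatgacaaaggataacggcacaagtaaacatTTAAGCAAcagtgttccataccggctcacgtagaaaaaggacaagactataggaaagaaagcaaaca
Klkb1: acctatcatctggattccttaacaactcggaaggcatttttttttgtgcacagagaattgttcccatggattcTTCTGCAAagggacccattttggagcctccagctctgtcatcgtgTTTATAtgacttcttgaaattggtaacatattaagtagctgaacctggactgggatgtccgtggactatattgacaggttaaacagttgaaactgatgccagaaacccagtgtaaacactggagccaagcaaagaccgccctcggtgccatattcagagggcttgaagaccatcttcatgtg
The F11 window held 1 match, to TTGCNNAA at position -17 from the start, and the Klkb1 window held a match to TTGCNNAA at -177 and to TATAAA at -132. Among 32851 mouse promoter windows of the same length, 10.8% held TTGCNNAA, 13.6% TATAAA, 11.1% CTGGGAA, 7.10% GTTAAT and 0.475% CAAAGTCCA. The member windows, 28 in all, held these motifs in 11, 4, 5, 5 and 0 cases. A match is a description of these letters and not a bound site.

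Beside F11, the other contact pathway genes did not pass against chow, and the kininogens had their lowest means in ketogenic-alternating livers. Kng1 encodes kininogen, the carrier of bradykinin that also docks prekallikrein and factor XI, and mice have a second copy, Kng2. Kng1 had 1406, 1223, 1245 and 1301 TPM in ketogenic-alternating livers, 1781, 1715, 1479 and 1489 TPM in chow-alternating livers, 1457, 1777, 1987 and 1429 TPM in high-fat livers, and 1704, 1837, 1816 and 1537 TPM in chow livers. All 4 ketogenic-alternating libraries lay below the other 12. The log2 difference was -0.35 from high-fat (adjusted p = 0.486), -0.32 from chow-alternating (adjusted p = 0.0741) and -0.41 from chow livers (adjusted p = 0.0803), so none passed. Kng2 had a log2 difference of -0.41 between ketogenic-alternating and chow livers (adjusted p = 0.0766), where its libraries did not overlap either. This Kng2 difference passed under median-of-ratios scaling, without mitochondrial genes and without chow replicate 1, and under that scaling so did both kininogens between ketogenic-alternating and chow-alternating livers. The copies share 7.32% of the Kng1 transcript at an identity of at least 95%, so some reads could be divided between them.

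F12, the gene of factor XII, had 399, 389, 373 and 382 TPM in ketogenic-alternating livers, 432, 433, 413 and 403 TPM in chow-alternating livers, 315, 296, 411 and 392 TPM in high-fat livers, and 421, 377, 349 and 432 TPM in chow livers. Its ketogenic-alternating libraries all lay below the chow-alternating ones, by 0.12 on the log2 scale on average (log2 difference -0.12, adjusted p = 0.269). Against high-fat and chow, the F12 libraries overlapped.

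Counted over all members, 1 of 33 tested members was called higher in ketogenic-alternating than in chow livers, against 3.67% of all genes tested, and 0 were called lower by limma, against 1.33%. The count was 1 of 32 between chow-alternating and chow livers, against 1.16% of all genes, and 1 of 32 between high-fat and chow livers, against 1.06%. In each case the member was F11, and it was also the 1 of 33 that passed the F test, against 3.87% of all genes. At an unadjusted p below 0.05, 12 members were higher and 2 lower in ketogenic-alternating than in chow livers, against 16.4% and 5.84% of all genes. The counts were 8 higher and 0 lower in chow-alternating livers, against 4.89% and 7.45%, and 3 higher and 0 lower in high-fat livers, against 4.22% and 7.40%. The median log2 difference of the members was 0.22 in ketogenic-alternating, 0.26 in chow-alternating and 0.17 in high-fat livers relative to chow, beside medians of 0.15, -0.04 and -0.05 over all genes tested. Single libraries moved these medians of the members: without chow replicate 3 that of high-fat livers was 0.06 and that of chow-alternating livers 0.12. Leaving out high-fat replicate 3 gave a high-fat median of 0.09, leaving out replicate 4 of that group gave 0.11, and leaving out replicate 1 of the high-fat or of the chow group gave 0.28. Without the 4 libraries over 33% in 20 genes the medians were 0.10 in ketogenic-alternating and 0.05 in chow-alternating livers, and under median-of-ratios scaling the ketogenic-alternating median was 0.10. Apart from F11, no member reached a log2 difference of 1 in either direction in the main fits of the 6 comparisons. F8, near 1 TPM, averaged 3.11 TPM in ketogenic-alternating, 1.19 TPM in chow-alternating and 1.28 TPM in chow livers. In alternative settings its log2 difference rose to at most 1.29 between ketogenic-alternating and chow livers. Between ketogenic-alternating and chow-alternating livers it rose to at most 1.18. Procr averaged under 1 TPM and was tested in none of them, and Vwf was tested in the 3 that include ketogenic-alternating livers.

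**Figure D2:**
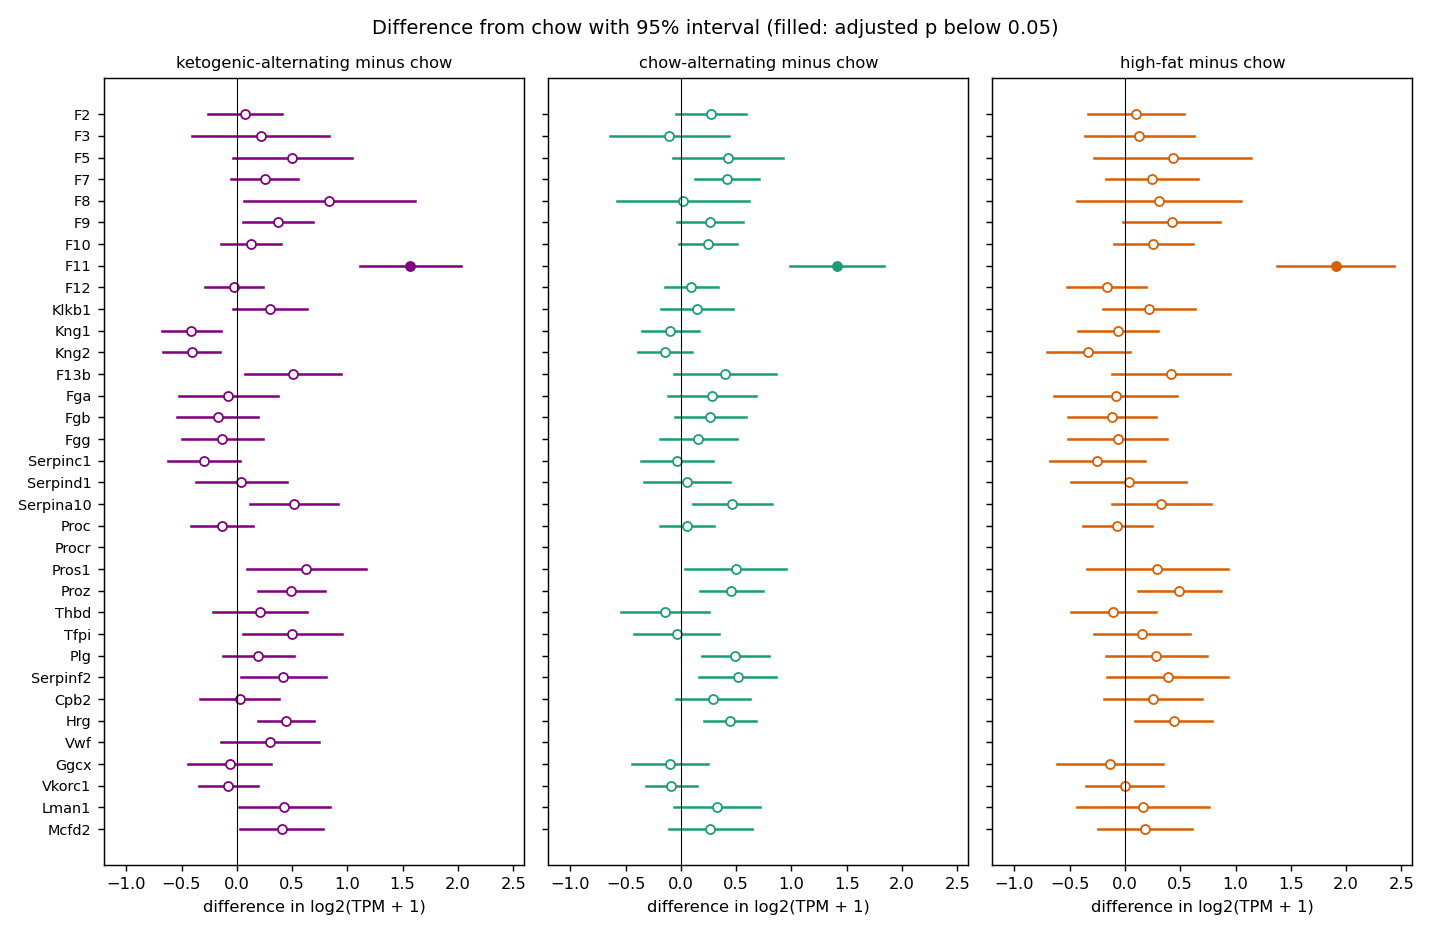
Difference of each tested member from chow in log2(TPM + 1), with 95% intervals, in ketogenic-alternating, chow-alternating and high-fat livers (4 against 4 libraries each). F11, at 1.57, 1.41 and 1.91, is the filled point in each panel, and the points of all other members lie within 1 of 0 on this scale.

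By p, Hrg and Proz stood next to F11 against chow without passing, except that Plg stood between Hrg and Proz in chow-alternating livers. Hrg encodes histidine-rich glycoprotein, a plasma protein that binds heparin, fibrinogen and plasminogen. Hrg had 786, 863, 856 and 793 TPM in ketogenic-alternating livers, 821, 814, 779 and 888 TPM in chow-alternating livers, 732, 748, 1025 and 813 TPM in high-fat livers, and 635, 650, 563 and 580 TPM in chow livers. As for F11, all 12 fat-fed libraries lay above all 4 chow libraries. The log2 difference was 0.44 in each of the 3 comparisons, with limma adjusted p of 0.0515 in ketogenic-alternating, 0.0824 in chow-alternating and 0.284 in high-fat livers. In 1 fit of all 16 libraries Hrg passed in ketogenic-alternating (adjusted p = 0.0299) and high-fat livers (adjusted p = 0.0454), and without chow replicate 1 it passed in ketogenic-alternating (adjusted p = 0.0321) and chow-alternating livers (adjusted p = 0.0496).

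Proz encodes protein Z, a vitamin K-dependent cofactor with which the serpin encoded by Serpina10 inhibits activated factor X. Proz had 212, 203, 224 and 182 TPM in ketogenic-alternating livers, 214, 189, 184 and 212 TPM in chow-alternating livers, 162, 206, 233 and 224 TPM in high-fat livers, and 174, 145, 122 and 143 TPM in chow livers. The alternating groups lay above chow without overlap, and high-fat replicate 1 fell within the chow range. Its log2 difference from chow was 0.49 (adjusted p = 0.0675) in ketogenic-alternating, 0.46 (adjusted p = 0.152) in chow-alternating and 0.49 (adjusted p = 0.266) in high-fat livers. Serpina10 had log2 differences of 0.52, 0.46 and 0.33 in the same order of groups (adjusted p = 0.129, 0.248 and 0.604).

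Without overlap, 7 members were higher in chow-alternating than in chow livers: Hrg, F7, Proz, F11, Serpinf2, Plg and Serpina10, of 32 tested and against 2.94% of all genes, and 0 were lower, against 5.54%. In ketogenic-alternating livers these were Hrg, Proz and F11, 3 of 33 against 9.34% of all genes, while Kng1, Kng2 and Serpinc1 were lower, 3 of 33 against 3.98%. In high-fat livers F11 and Hrg, 2 of 32, were higher without overlap, against 2.49%, and 0 were lower, against 5.73%. Leaving out chow replicate 1 raised the called members to 11 between ketogenic-alternating and chow livers and to 4 between chow-alternating and chow livers, where calls over all genes rose as well, to 14.8% and 2.25% of those tested. The 11 were F11, F13b, F5, F8, F9, Hrg, Lman1, Pros1, Proz and Serpina10 higher and Kng2 lower, and the 4 were F11, Hrg, Plg and Proz, all higher. Under median-of-ratios scaling Plg, Proz and Serpinf2 passed beside F11 between chow-alternating and chow livers, and in 1 fit of 16 libraries Hrg and Proz passed beside it between ketogenic-alternating and chow livers. In the F test, Hrg passed without high-fat replicate 1, 2 or 3, and Proz without high-fat replicate 1 or chow replicate 1.

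**Figure D3:**
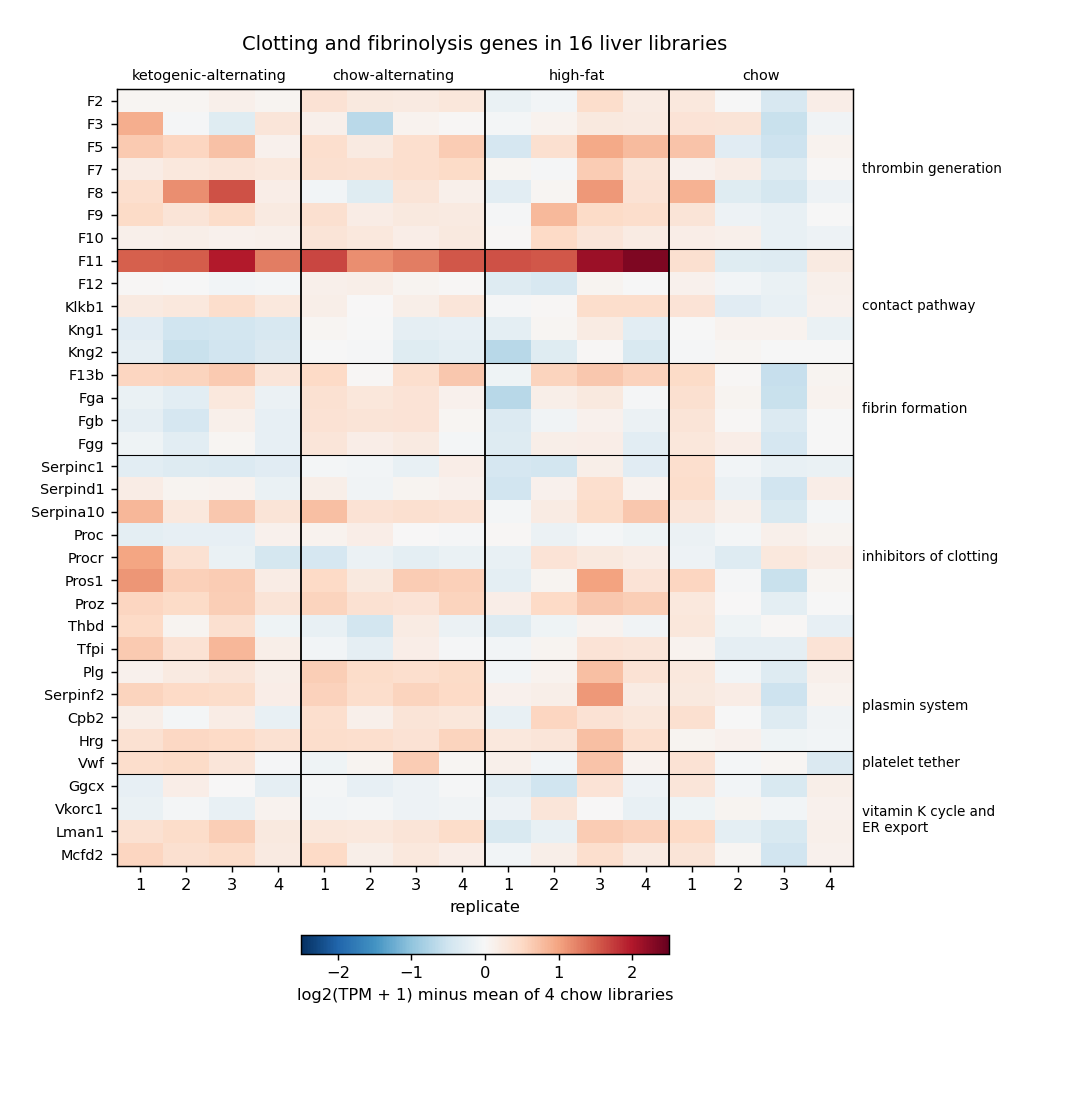
Level of the 34 members in each of 16 libraries as log2(TPM + 1) minus the mean of the 4 chow libraries, with members in order of role. F11 is above the chow mean in all 12 fat-fed libraries, and many members are low together in chow replicate 3, the library with 38.8% of its TPM in 20 genes.

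The 3 fibrinogen genes, which lie next to each other on chromosome 3, were among the 4 most abundant members and were high and low in the same libraries. Fga, Fgb and Fgg encode the alpha, beta and gamma chains that thrombin converts to fibrin. Fga had 2698, 2523, 3606 and 2737 TPM in ketogenic-alternating livers, 3956, 3661, 3829 and 3253 TPM in chow-alternating livers, 1879, 3333, 3578 and 2943 TPM in high-fat livers, and 4002, 3171, 2045 and 3200 TPM in chow livers. Fgb had 1334, 1169, 1709 and 1359 TPM in ketogenic-alternating livers, 2003, 1938, 1965 and 1616 TPM in chow-alternating livers, 1233, 1469, 1680 and 1398 TPM in high-fat livers, and 1941, 1598, 1229 and 1540 TPM in chow livers. Fgg had 2729, 2433, 3031 and 2533 TPM in ketogenic-alternating livers, 3595, 3294, 3416 and 2823 TPM in chow-alternating livers, 2344, 3244, 3284 and 2448 TPM in high-fat livers, and 3543, 3288, 2180 and 2893 TPM in chow livers. High-fat replicate 1 and chow replicate 3 were the lowest of their groups for all 3 chains, and ketogenic-alternating replicate 3 was the highest of its group for all 3. This was not particular to the chains. High-fat replicate 1 and chow replicate 3 also had the lowest shares of TPM in the members as a whole, 1.39% and 1.37%. Members such as F2, F5 and Plg were lowest and highest of their groups in the same libraries. Proc was instead the highest of its group in high-fat replicate 1 and in chow replicate 3.

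Of the chains, Fgb differed most between the alternating groups, with a log2 difference of -0.44 between ketogenic-alternating and chow-alternating livers (interval -0.72 to -0.17, limma adjusted p = 0.0634). Fga had -0.36 (adjusted p = 0.104) and Fgg -0.29 (adjusted p = 0.119), and the libraries of each chain overlapped. Fga and Fgb passed as lower without ketogenic-alternating replicate 3, when 0.544% of all genes tested were called lower. Against chow, the intervals of all 3 chains included 0 in the 3 fat-fed groups. The ratio of Fga to Fgb within a library stayed between 1.52 and 2.27 over the 16 libraries, and that of Fgg to Fgb between 1.70 and 2.21. F13b, the carrier subunit of the fibrin crosslinking factor XIII, had a log2 difference of 0.51 between ketogenic-alternating and chow livers (adjusted p = 0.165).

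The promoter windows of the chains are shown with the same marking of motifs, since the chains were high and low in the same libraries, as were other members. Fga is at chr3:83025903-83026202 on the plus strand, Fgb at chr3:83049814-83050113 on the minus strand and Fgg at chr3:83007474-83007773 on the plus strand.
Fga: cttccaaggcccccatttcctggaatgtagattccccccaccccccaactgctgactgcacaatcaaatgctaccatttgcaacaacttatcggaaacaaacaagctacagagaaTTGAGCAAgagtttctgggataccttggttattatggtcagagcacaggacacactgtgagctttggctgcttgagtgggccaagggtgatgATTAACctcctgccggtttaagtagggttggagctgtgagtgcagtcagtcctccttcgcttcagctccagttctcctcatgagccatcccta
Fgb: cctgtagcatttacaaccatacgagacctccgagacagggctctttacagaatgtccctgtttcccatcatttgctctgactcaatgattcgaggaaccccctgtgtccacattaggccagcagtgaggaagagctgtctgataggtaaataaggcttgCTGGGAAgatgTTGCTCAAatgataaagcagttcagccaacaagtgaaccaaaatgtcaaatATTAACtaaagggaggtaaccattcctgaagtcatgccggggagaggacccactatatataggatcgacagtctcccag
Fgg: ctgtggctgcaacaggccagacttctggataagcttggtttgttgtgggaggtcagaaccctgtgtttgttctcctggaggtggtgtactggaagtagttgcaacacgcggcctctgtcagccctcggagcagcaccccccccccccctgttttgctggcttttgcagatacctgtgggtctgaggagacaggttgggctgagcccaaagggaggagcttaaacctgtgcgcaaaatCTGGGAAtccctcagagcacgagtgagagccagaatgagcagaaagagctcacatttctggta
CTGGGAA was found in Fgb at position -91 and in Fgg at -13, GTTAAT in Fga at -43 and in Fgb at -29, and TTGCNNAA in Fga at -135 and in Fgb at -80. No motif of the 5 was found in all 3 windows.

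**Figure D4:**
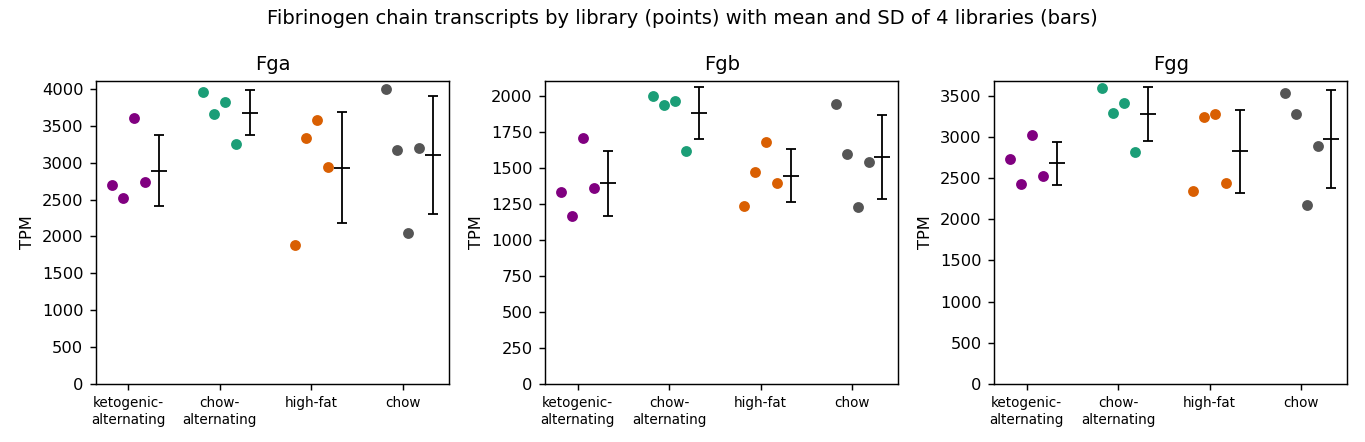
Level in TPM of the fibrinogen chain genes Fga, Fgb and Fgg in each library (points) with the mean and SD of 4 libraries per group (bars). Chow-alternating libraries lie between 1616 and 2003 TPM for Fgb, and ketogenic-alternating libraries between 1169 and 1709 TPM.

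Between ketogenic-alternating and chow-alternating livers 0 of 33 members were called by limma, against 5.04% of all genes tested. At an unadjusted p below 0.05, 10 members were lower (Fgb, Plg, Kng1, Serpinc1, Fga, Fgg, F2, Kng2, Cpb2 and F7), against 3.33% of all genes, and 2 were higher (Tfpi and F8), against 25.7%. Without overlap, 7 members were lower, against 2.06% of all genes, and 0 were higher, against 14.7%. The median log2 difference was 0.01 over the members and 0.19 over all genes, and 4 of 33 members lay above the median of all genes. Scaling by median of ratios moved the median of all genes to -0.00 and that of the members to -0.21, and 5 of 33 members were then called lower, against 1.45% of all genes: Fgb (log2 difference -0.66, adjusted p = 0.0409), Kng1 (-0.53, 0.0352), Plg (-0.51, 0.0435), Cpb2 (-0.48, 0.0279) and Kng2 (-0.48, 0.0484). The share of higher genes among all calls was 85.6% with the deposited TPM and 41.3% after this scaling. Summed hepatocyte markers lay between 78352 and 85266 TPM in ketogenic-alternating livers and between 95646 and 105416 TPM in chow-alternating livers. Of these markers 9 were tested and 0 called, with log2 differences between -0.60 and 0.40. The 7 adipocyte markers, of which Lep was at 0 throughout, summed to between 21.3 and 70.9 TPM in ketogenic-alternating and between 1.89 and 3.26 TPM in chow-alternating livers. However, 6 of the 7 averaged under 1 TPM over the 16 libraries. Only 1, Cidec, was tested, and it was called higher (log2 difference 3.44), against 4.31% of all genes tested. With so few measurable genes, the sum does not show how many adipocytes were present. The part of either marker group in these differences was not tested.

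**Figure D5:**
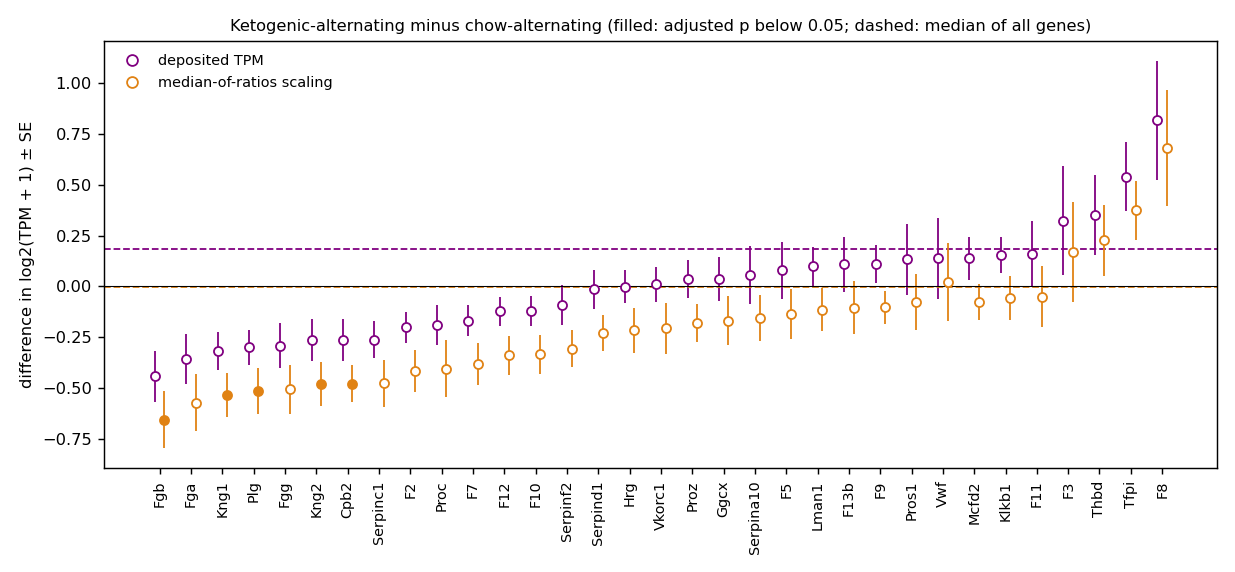
Difference of each member between ketogenic-alternating and chow-alternating livers in log2(TPM + 1) ± SE, with the deposited TPM and after median-of-ratios scaling (dashed lines, median of all genes, 0.19 and -0.00). The scaled values lie lower throughout, and 5 of them are filled as called.

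Plg, the gene of plasminogen, had 1133, 1243, 1304 and 1163 TPM in ketogenic-alternating livers, 1627, 1453, 1410 and 1468 TPM in chow-alternating livers, 1013, 1129, 1777 and 1352 TPM in high-fat livers, and 1275, 1009, 841 and 1152 TPM in chow livers. Ketogenic-alternating libraries all lay below chow-alternating ones (log2 difference -0.30, adjusted p = 0.0688), and the chow-alternating libraries lay above the chow ones (0.49, adjusted p = 0.142). Of the Plg transcript 15.3% matches sequence of Slc22a3, which overlaps it on the other strand and averaged 1.53 TPM. F2, the gene of prothrombin, had 1216, 1213, 1279 and 1239 TPM in ketogenic-alternating livers, 1503, 1386, 1378 and 1425 TPM in chow-alternating livers, 1047, 1117, 1587 and 1362 TPM in high-fat livers, and 1406, 1167, 889 and 1313 TPM in chow livers. The alternating groups of F2 did not overlap (-0.20, adjusted p = 0.123). F10, the gene of factor X, had 312, 317, 310 and 313 TPM in ketogenic-alternating livers, 361, 342, 320 and 339 TPM in chow-alternating livers, 292, 404, 355 and 329 TPM in high-fat livers, and 323, 314, 253 and 263 TPM in chow livers.

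Serpinc1 encodes antithrombin, the main inhibitor of thrombin and activated factor X. It had 756, 727, 714 and 744 TPM in ketogenic-alternating livers, 868, 862, 793 and 1018 TPM in chow-alternating livers, 672, 660, 1006 and 747 TPM in high-fat livers, and 1204, 858, 799 and 810 TPM in chow livers. The ketogenic-alternating libraries lay below both the chow-alternating (-0.26, adjusted p = 0.103) and the chow libraries (-0.30, adjusted p = 0.258) without overlap. Since 59.2% of its transcript matches sequence of Zbtb37, which overlaps it on the other strand and averaged 1.80 TPM, a small part of its reads may be uncertain. Proc, the gene of the anticoagulant protease protein C, had 489, 500, 499 and 617 TPM in ketogenic-alternating livers, 607, 645, 576 and 565 TPM in chow-alternating livers, 588, 520, 556 and 531 TPM in high-fat livers, and 520, 554, 626 and 606 TPM in chow livers. Proc varied least of all members, by 1.32-fold between its lowest and highest library.

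Tfpi, Thbd and Vwf, which endothelial cells make, averaged under 5 TPM in every group. Tfpi, the gene of tissue factor pathway inhibitor, had 4.69, 3.59, 5.40 and 3.01 TPM in ketogenic-alternating livers, 2.44, 2.08, 3.04 and 2.52 TPM in chow-alternating livers, 2.42, 2.77, 3.56 and 3.41 TPM in high-fat livers, and 2.85, 2.09, 2.09 and 3.56 TPM in chow livers. Thbd, the gene of the thrombin receptor thrombomodulin, had 2.12, 1.31, 1.93 and 1.05 TPM in ketogenic-alternating livers, 0.963, 0.615, 1.58 and 1.01 TPM in chow-alternating livers, 0.786, 1.06, 1.35 and 1.102 TPM in high-fat livers, and 1.70, 1.06, 1.26 and 0.936 TPM in chow livers. Vwf, the gene of von Willebrand factor that tethers platelets and carries factor VIII, had 1.37, 1.45, 1.17 and 0.703 TPM in ketogenic-alternating livers, 0.617, 0.830, 1.72 and 0.814 TPM in chow-alternating livers, 0.902, 0.656, 1.87 and 0.855 TPM in high-fat livers, and 1.24, 0.690, 0.808 and 0.362 TPM in chow livers. Each of these genes overlapped between all groups.

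Between ketogenic-alternating and chow-alternating livers the log2 difference was 0.54 for Tfpi (adjusted p = 0.0833), 0.82 for F8, the gene of factor VIII (adjusted p = 0.110), and 0.35 for Thbd (adjusted p = 0.246). Without ketogenic-alternating replicate 4, Tfpi and F8 passed as higher and Proc as lower, when 21.4% of all genes tested were called higher and 1.67% lower. The 10 markers of sinusoidal endothelial cells, a source of factor VIII, summed to between 187 and 279 TPM in ketogenic-alternating livers and between 123 and 167 TPM in chow-alternating livers. With all libraries kept, 2 of the 10, Clec4g and Oit3, were called higher, against 4.31% of all genes tested. None of these 10 markers averaged under 1 TPM. The 10 markers of vascular endothelial cells, which also make thrombomodulin, summed to between 36.0 and 62.0 TPM in ketogenic-alternating and between 30.5 and 49.0 TPM in chow-alternating livers, with a median log2 difference of 0.50 over 9 tested. Rspo3 was called higher, 1 of these 9 against the same 4.31%. The 10 Kupffer cell markers summed to between 195 and 673 TPM in ketogenic-alternating and between 220 and 295 TPM in chow-alternating livers, with a median log2 difference of 0.77, beside 0.50 for the sinusoidal markers, and none was called. Over all genes tested the median was 0.19, and it moved to -0.00 under median-of-ratios scaling. The part of these 3 marker groups in the values of Tfpi, F8 and Thbd was not tested. Of 10 platelet markers 7 averaged under 1 TPM.

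The vitamin K cycle and export genes did not pass in the 6 comparisons when all libraries were kept. Vkorc1, the vitamin K epoxide reductase that warfarin blocks, had 279, 304, 275 and 332 TPM in ketogenic-alternating livers, 298, 301, 286 and 295 TPM in chow-alternating livers, 285, 386, 316 and 273 TPM in high-fat livers, and 292, 328, 297 and 337 TPM in chow livers. Its log2 differences from chow lay between -0.09 and -0.00. Because 53.7% of the Vkorc1 transcript is shared with Gm21974, which overlaps it on the same strand and had 0 TPM, its level is less certain. Mcfd2, which with Lman1 carries factors V and VIII out of the endoplasmic reticulum, had 230, 209, 217 and 184 TPM in ketogenic-alternating livers, 224, 174, 190 and 177 TPM in chow-alternating livers, 151, 176, 212 and 184 TPM in high-fat livers, and 198, 163, 112 and 171 TPM in chow livers. Its log2 difference between ketogenic-alternating and chow livers was 0.40 (adjusted p = 0.197), and that of Lman1 was 0.43 (adjusted p = 0.210). Ggcx, the carboxylase that uses vitamin K, lay between 16.2 and 29.7 TPM over all libraries.

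Relative to continuous high-fat feeding, the alternating diets changed no member past the threshold. Between ketogenic-alternating and high-fat livers 0 of 33 members were called by limma, against 0.0360% of all genes, while at an unadjusted p below 0.05 Kng1 was lower, against 0.936% of all genes, and 0 were higher, against 9.11%. Kng1 was also the 1 member lower without overlap, against 0.549% of all genes. Between chow-alternating and high-fat livers 0 of 32 were called, against 0.0459% of all genes, and 2 had an unadjusted p below 0.05, against 4.15%. These were F11 (-0.49) and Fgb (log2 difference 0.38, interval 0.07 to 0.69).

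Of 30 other clotting and fibrinolysis genes, 19 were tested. Fgl1, which encodes a fibrinogen-like protein secreted by hepatocytes, was higher in ketogenic-alternating livers (626 against 290 TPM in chow, adjusted p = 0.00965) and in chow-alternating livers (660 against 290 TPM in chow, adjusted p = 0.0109). In high-fat livers Fgl1 averaged 546 TPM (log2 difference from chow 0.92, adjusted p = 0.0658). Serpine2, a thrombin inhibitor, was lower in ketogenic-alternating than in chow-alternating livers (15.2 against 24.0 TPM, adjusted p = 0.0349). No other gene of this list was called in the 6 comparisons. Over all genes tested, 3.67% were called higher in ketogenic-alternating and 0.644% in chow-alternating than in chow livers. Between the alternating groups 0.727% were called lower.

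Of 12 acute phase genes, which the liver induces together with fibrinogen in inflammation, Saa1, Saa2 and Lcn2 were called higher in chow-alternating and in high-fat than in chow livers. Over all genes tested, 0.644% and 0.575% were called higher there. The others of the 12 were not called, and the 12 log2 differences lay between 0.05 and 3.87 (median 0.45) in chow-alternating livers. In high-fat livers they lay between -0.23 and 3.05 (median 0.40). Saa1 was also called higher and Orm1 lower in ketogenic-alternating than in chow livers, against 3.67% and 1.33% of all genes. Orm1 was lower in ketogenic-alternating than in chow-alternating livers too (706 against 1374 TPM, log2 difference -0.99, limma adjusted p = 0.0127). Of 12 liver transcription factors, Dbp, an output gene of the circadian clock, was called higher in ketogenic-alternating livers (89.9 against 2.68 TPM in chow, adjusted p = 1.35e-04) and in chow-alternating livers (35.2 against 2.68 TPM in chow, adjusted p = 0.0104). Dbp was the 1 factor called in these comparisons, beside 3.67% and 0.644% of all genes called higher. In high-fat livers it averaged 47.9 TPM (adjusted p = 0.185 against chow). The means of F11 and Dbp were thus both lowest in chow livers. Among the fat-fed groups F11 was highest in high-fat livers (56.1 TPM) and Dbp in ketogenic-alternating livers (89.9 TPM). The Dbp libraries of high-fat and chow livers overlapped, whereas those of F11 did not. The part of the hour of collection in the F11 difference was not tested.

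Among the 8 members with a mean of at least 5 TPM and a second transcript of at least 5% of the gene total, the share of the main transcript was compared in 48 exact two-sided permutation tests, in which 0.0286 is the smallest p that 4 against 4 libraries allow. Only Fgg reached it, with 80.1% ± 1.60 of its transcripts in the main form in chow-alternating livers and 74.8% ± 2.03 in chow livers (SD, n = 4 each). None passed after adjustment over the 48 tests (smallest adjusted p = 0.686).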

How the data were processed

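RNA sequencing of 16 mouse livers, 4 libraries in each of 4 diet groups, was used. Per the series' design text and the submitters' processing notes, reads were aligned to mm10 with HISAT2, and RSEM 1.1.17 gave expression on Ensembl release 96. The design text names FPKM, but each column of the deposited table sums to 1e+06, so the deposited values were read as TPM. Genes that reached 1 TPM in 4 or more libraries of a comparison were kept, log2(TPM + 1) was fitted with limma 3.58.1 (intensity trend, R 4.3.3) to the 8 libraries of each comparison, and p-values were adjusted by Benjamini-Hochberg over all genes tested. The planned tests had been written for counts or FPKM. The script was tested on simulated data. Positions come from GENCODE vM21, which held 22505 of the 22612 gene identifiers, shared transcript sequence from blastn 2.17.0 (alignments of at least 100 bases), and promoter windows from RefSeq. Values per library are given for members called in any of 7 fits, the 2 most abundant members of each role, and the 3 with the smallest p in each comparison, and for Klkb1, the neighbour of F11, chosen after its values were seen. The alternatives were a pseudocount of 0.1, no filter, median-of-ratios scaling, leaving out mitochondrial genes, a replicate block, 1 fit of 16 libraries, and leaving out each library in turn. The members and gene lists were chosen with earlier results of these data known.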

Additional observations from a re-analysis of the deposited data

Results flagged for a closer look

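Of 136 sets of 4 libraries, 1 for each member in each group, 7 held a library far from the other 3 by Dixon's gap test at its 95% critical value, and chance gives about 1 in 20. F3 had 1.16 TPM in chow-alternating replicate 2, where the nearest library had 2.57 TPM. F8 had 2.91 TPM in chow replicate 1, with the nearest at 0.946 TPM. Fgb had 1616 TPM in chow-alternating replicate 4, with the nearest at 1938 TPM. Serpinc1 had 1204 TPM in chow replicate 1, with the nearest at 858 TPM. Serpinf2, the gene of the plasmin inhibitor alpha-2-antiplasmin, had 1066 TPM in high-fat replicate 3, with the nearest at 575 TPM. Serpina10 had 92.2 TPM in chow-alternating replicate 1, with the nearest at 72.0 TPM. Proc had 617 TPM in ketogenic-alternating replicate 4, with the nearest at 499.8 TPM.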

How the results depend on the processing

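Of 662 alternative values for 45 differences of named members, 631 kept their direction and side of the threshold, 29 newly passed, 1 was lost (F11 between chow-alternating and chow livers with no filter) and 1 turned (F11 between ketogenic-alternating and chow-alternating livers, -0.051 under median-of-ratios scaling). Called members numbered 5 between ketogenic-alternating and chow-alternating livers, 4 between chow-alternating and chow, 2 between ketogenic-alternating and chow, and 5 (F11, Fgb, Kng2, Plg and Proz) over the 4 groups under that scaling. Without mitochondrial genes 2 were called between ketogenic-alternating and chow livers. In 1 fit of 16 libraries 3 were called there, and 2 between high-fat and chow livers. With no filter 0 were called between chow-alternating and chow livers. Called genes of any kind numbered 116 between high-fat and chow livers, but 60 with no filter, 43 with the replicate block, 399 in 1 fit of 16 libraries and 19 without the libraries over 33% in 20 genes. They numbered 5 between chow-alternating and high-fat livers (block 12, without those libraries 1) and 4 between ketogenic-alternating and high-fat livers (no filter 1, 1 fit 16). Between ketogenic-alternating and chow-alternating livers there were 554 (no filter 274, median of ratios 271, block 181, 1 fit 107). Between chow-alternating and chow livers there were 126 (no filter 3, median of ratios 215), between ketogenic-alternating and chow livers 555 (no filter 351, without those libraries 189), and over the 4 groups 443 (block 295). The share of higher genes among the calls, with deposited TPM and then under median-of-ratios scaling, was 55.6% and 72.6% between chow-alternating and chow, 73.3% and 53.1% between ketogenic-alternating and chow, and 60.0% and 75.0% between chow-alternating and high-fat livers. Without mitochondrial genes it was 41.4% between chow-alternating and chow livers. Leaving out 1 library gave 36 to 125 calls between high-fat and chow, 3 to 32 between chow-alternating and high-fat, 2 to 22 between ketogenic-alternating and high-fat, 162 to 2513 between ketogenic-alternating and chow-alternating, 32 to 242 between chow-alternating and chow, 181 to 1620 between ketogenic-alternating and chow, and 255 to 630 over the 4 groups. The highest counts came without high-fat replicate 3 (first 3 and last), ketogenic-alternating replicate 4, and chow replicate 1 (both alternating groups against chow). Members called ranged from 1 to 1, 0 to 0, 0 to 0, 0 to 3, 1 to 4, 1 to 11 and 1 to 3 in that order of comparisons. Pairing of samples by replicate number was not seen, though these correlations cannot exclude it. Deviations of same-numbered libraries correlated between -0.58 and 0.386, with 4 of 24 over 0.1. Their median was -0.0016, beside -0.014 for libraries of different number. The block changed no count of called members, but it changed the counts over all genes given above. The setting without libraries over 33% was chosen after seeing the data. The causes were not tested. Unknown depth limits statements on Procr, Vwf, Thbd, F3 and F8, which lie near 1 TPM.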
